A study of Mus musculus with 4 samples.

Results

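The phagocyte NADPH oxidase is the enzyme with which neutrophils and macrophages turn oxygen into superoxide. Its 6 genes described here, Cybb, Cyba, Ncf1, Ncf4, Rac2 and Hvcn1, were chosen by name and matched to Ensembl identifiers, and all 6 were found among the 45232 gene identifiers of the count files. RNA was sequenced from L-GMPs, leukemic cells with the surface proteins of granulocyte-macrophage progenitors, purified from mice transplanted, as secondary recipients, with MLL-AF9 leukemia, a model of acute myeloid leukemia driven by that fusion oncoprotein. The sorted cells were described as positive for the reporters tdTom and GFP, for the surface proteins Sca-1 and c-Kit, and for CD34 and CD16/32, and they were taken when the animals died. The groups were miR-99 KD, named for the microRNA family miR-99, and Scr, against which it is set, with 2 mice and 2 libraries each. All 4 recipients carried the same oncogene. The labels spell out neither KD nor Scr, give no age or strain and do not say if 1 donor leukemia or several supplied the transplanted cells, so the spread between libraries may be that within a single leukemia.

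The catalytic core of the oxidase sits in the membrane as a pair of proteins. Cybb encodes gp91phox, which carries electrons from NADPH to oxygen, and Cyba encodes its partner p22phox. In a resting cell the other subunits wait in the cytosol. Ncf1 encodes p47phox, the organizer that is phosphorylated on activation and binds p22phox, and Ncf4 encodes p40phox, which binds a phosphoinositide of the phagosome membrane. Rac2 is the small GTPase of blood cells that completes the active complex. Hvcn1 encodes a voltage-gated proton channel that carries out the protons left behind by the electron transfer. Oxidase proteins increase as granulocytes and monocytes mature, and inherited loss of gp91phox, p22phox, p47phox or p40phox causes chronic granulomatous disease in people.

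Mature miR-99 family members share 1 seed, the stretch of bases 2 to 8 with which a microRNA recognizes its targets, shown here because it defines the match that was searched in the oxidase transcripts. The mature sequences are from RefSeq (GRCm38.p6), 5′ to 3′, with the seed in capitals.
mmu-miR-99a-5p: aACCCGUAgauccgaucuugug
mmu-miR-99b-5p: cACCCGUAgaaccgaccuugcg
mmu-miR-100-5p: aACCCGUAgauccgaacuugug
No oxidase gene held a match. The longest coding transcript of each gene in GENCODE M21 was searched on its own strand for TACGGGT, the match to bases 2 to 8, for ACGGGTA, the match to bases 2 to 7 followed by A, and for the bare ACGGGT that both contain. Of 6 oxidase transcripts, 0 held ACGGGT anywhere, with 3′ untranslated regions from 102 bases (Cyba) to 2965 bases (Cybb). Among 21484 coding genes, 14.9% held ACGGGT in the whole transcript, 5.24% in the 3′ untranslated region, and 1.04% held TACGGGT in the 3′ untranslated region. The absence of these letters says nothing about matches of other kinds.

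The libraries held 42674407 and 42529111 gene counts in miR-99 KD and 38458519 and 41870314 in Scr. Scr 1 stood apart, with genes of smell receptors (Olfr) at 51.9 CPM (gene counts scaled to the same total in every library), against 4.78 to 15.0 CPM in the other libraries. The fold changes of the oxidase genes are therefore also given without Scr 1, but the levels, ratios and profiles over libraries include it. Of the sort markers, Kit, Cd34 and Fcgr3 were abundant in every library (232 to 482 CPM), but Ly6a, the gene of Sca-1, had 5 and 4 counts in miR-99 KD and 4 and 8 in Scr, against the label. Kit was at 298 and 232 CPM in miR-99 KD, below its 453 and 424 CPM in Scr, while Cd34 and Fcgr3 overlapped in CPM. After TMM scaling, 3 of the 4 sort markers tested lay above both Scr libraries and 1 below. Of all genes tested, 18.9% lay above and 25.3% below in this way. The level of mature miR-99 was not analysed here.

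Of the 6 oxidase genes, Cybb differed most between the groups and the others little. Cybb averaged 823 ± 453 CPM in miR-99 KD, against 318 ± 144 CPM in Scr (SD, n = 2 each), a ratio of means of 2.59. Cyba, Ncf1, Ncf4 and Rac2 had overlapping values in the 2 groups, and Hvcn1, the least abundant, was slightly higher in miR-99 KD. None of the 6 passed edgeR's quasi-likelihood test over all 15591 genes tested, in which 0 genes (0%) had an adjusted p under 0.05. At an unadjusted p under 0.05 edgeR had 414 genes higher (2.66%) and 816 lower (5.23%) in miR-99 KD, and Cybb was the single oxidase gene among them. DESeq2 called 96 genes higher (0.565%) and 112 lower (0.659%), and limma-voom called 0; neither called an oxidase gene.

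Cybb (ENSMUSG00000015340) lies on chromosome X at 9435252 to 9487771, minus strand, in GRCm38, as do all positions given here from GENCODE M21. It had 503 and 1144 CPM in miR-99 KD libraries 1 and 2, against 420 and 216 CPM in Scr libraries 1 and 2. Both miR-99 KD libraries lay above both Scr libraries, as they did in 18.9% of all genes tested after TMM scaling, and in 25.3% both lay below; 2 of the 6 oxidase genes, Cybb and Hvcn1, were in the higher class and 0 in the lower. The gap was narrow, since the lower miR-99 KD library exceeded the higher Scr library 1.20 times, while the libraries of 1 group differed from each other 2.27 times in miR-99 KD and 1.94 times in Scr. The log2 fold change was 1.44 ± 0.50 (SE), with a 95% interval of 0.11 to 2.78 and an edgeR adjusted p of 0.621. DESeq2 gave 1.50 ± 0.51 and an adjusted p of 0.191.

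The size of the Cybb difference depended on single libraries. Without miR-99 KD 2, the library with the most Cybb, the log2 fold change was 0.79 (edgeR adjusted p 0.917). Without Scr 1, the library with the Olfr counts, it was 1.99 with an edgeR adjusted p of 2.25e-04, which would be a call. In that fit 158 genes (0.993%) were called higher and 136 (0.855%) lower, and the lone Scr library is assumed to vary like the miR-99 KD group. Without Scr 2 it was 1.15, and without miR-99 KD 1 it was 1.97, with edgeR adjusted p of 0.475 and 0.307. The 3 exclusions other than Scr 1 left Cybb above the threshold of 0.05. In every fit run the fold change was positive.

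**Figure D1:**
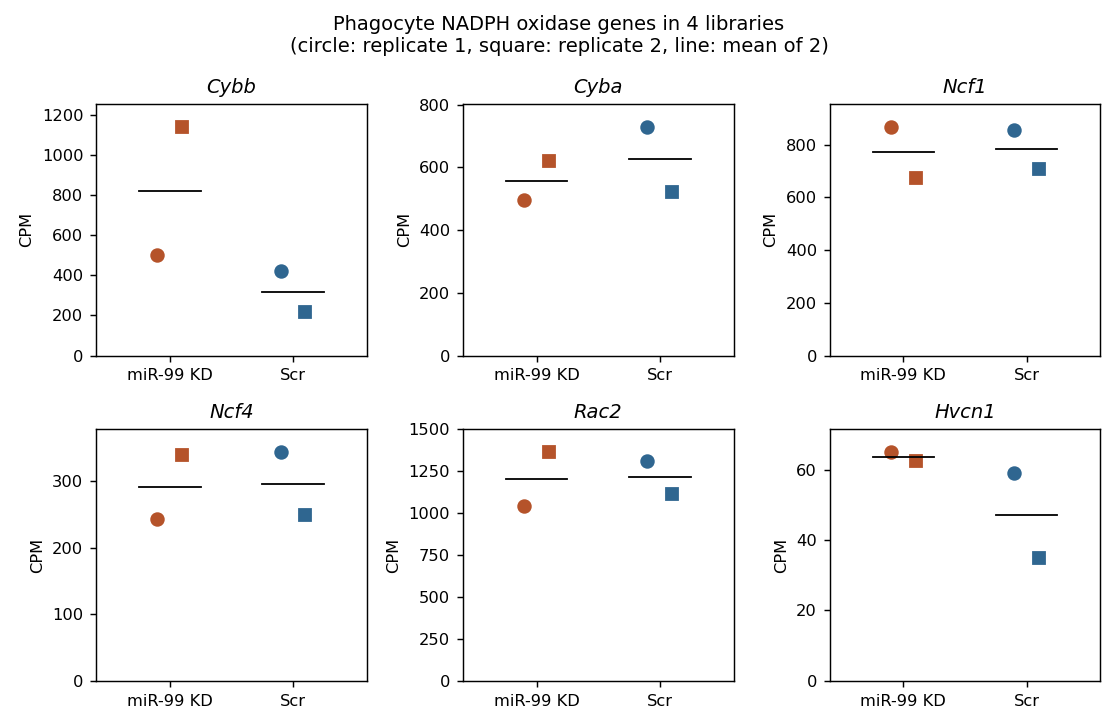
CPM (vertical axes, from 0, each with its own range) of the 6 oxidase genes in miR-99 KD and Scr libraries. Circles are replicate 1, squares replicate 2 and lines the mean of 2 libraries. Cybb is at 503 and 1144 CPM in miR-99 KD and 420 and 216 CPM in Scr, and the values of Cyba, Ncf1, Ncf4 and Rac2 overlap.

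Cyba, for the p22phox partner that stabilizes gp91phox, did not share the Cybb pattern. The gene (ENSMUSG00000006519) lies on chromosome 8 at 122424776 to 122432930, minus strand. It had 495 and 619 CPM in miR-99 KD and 730 and 522 CPM in Scr. The highest and the second lowest value were both in Scr, and the groups overlapped. The log2 fold change was −0.11 ± 0.20, with a 95% interval of −0.65 to 0.43 and an edgeR adjusted p of 0.885. Its sign was not stable, and it was 0.15 without Scr 1 and 0.09 without miR-99 KD 1.

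The cytosolic subunits had overlapping values in both groups. Ncf1 (ENSMUSG00000015950) lies on chromosome 5 at 134220053 to 134229625, minus strand, and Ncf4 (ENSMUSG00000071715) on chromosome 15 at 78244801 to 78262580, plus strand. Ncf1, for the organizer p47phox, had 869 and 674 CPM in miR-99 KD and 857 and 708 CPM in Scr. In each group 1 library was high and 1 lower, and the log2 fold change was 0.04 ± 0.20 (95% interval −0.48 to 0.56, edgeR adjusted p 0.957). Ncf4, for p40phox, had 244 and 340 CPM in miR-99 KD and 344 and 249 CPM in Scr. Its library values nearly coincided across the groups, with a log2 fold change of 0.04 ± 0.23 (95% interval −0.57 to 0.65, edgeR adjusted p 0.963). Differences within these intervals could be present with 2 libraries a group. Larger ones could go uncalled too, as Cybb did at 1.44. Without Scr 1 the log2 fold change was 0.18 for Ncf1 and 0.29 for Ncf4. Leaving out 1 library turned the sign of Ncf1 (−0.11 without miR-99 KD 1) and of Ncf4 (−0.06 without Scr 2 and −0.17 without miR-99 KD 2).

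Rac2, the GTPase, was the oxidase gene with the most reads. It (ENSMUSG00000033220) lies on chromosome 15 at 78559167 to 78572783, minus strand. It had 1046 and 1366 CPM in miR-99 KD and 1314 and 1118 CPM in Scr, and miR-99 KD held both the highest and the lowest library. The log2 fold change was 0.04 ± 0.18 (95% interval −0.44 to 0.53, edgeR adjusted p 0.948). It was 0.17 without Scr 1 and −0.11 without miR-99 KD 2.

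Hvcn1, the proton channel gene (ENSMUSG00000064267), lies on chromosome 5 at 122206804 to 122242297, plus strand. It had 65.0 and 62.3 CPM in miR-99 KD and 59.0 and 35.0 CPM in Scr. The miR-99 KD libraries lay close together and above both Scr libraries, but the lower of them exceeded Scr 1 only 1.05 times, and the Scr libraries differed from each other 1.68 times. The log2 fold change was 0.51 ± 0.26 (95% interval −0.20 to 1.22), with an edgeR adjusted p of 0.689 and a DESeq2 adjusted p of 0.997. It was 0.28 without Scr 2, the library with the low value, and 0.92 without Scr 1, with edgeR adjusted p of 0.850 and 0.647. Exons of Hvcn1 share 1574 bases with Tctn1 on the opposite strand, and exons of Ncf1 share 408 bases with Gtf2ird2. No source used here gives the strand setting of the counting, so these counts are uncertain. Tctn1 had 523 and 406 counts in miR-99 KD and 677 and 672 in Scr. Hvcn1 had 2773 and 2648 counts in miR-99 KD and 2270 and 1467 in Scr. Gtf2ird2 had 946 and 601 counts in miR-99 KD and 578 and 905 in Scr, far below the 28670 to 37089 counts of Ncf1.

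Over the 6 genes the median log2 fold change was 0.04, beside −0.01 over all genes tested. A positive sign was seen in 5 of 6, beside 49.0% of all genes, and a negative one in 1, beside 51.0%. Of the positive ones, Ncf1, Ncf4 and Rac2 were at 0.04, well within their SE of 0.18 to 0.23. Their ratios of mean CPM, miR-99 KD over Scr, were 0.986, 0.985 and 0.992, so their sign depended on the scaling. Of all genes tested, 1.37% had a higher fold change than Cybb, and 9.73% had a higher one than Hvcn1.

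**Figure D2:**
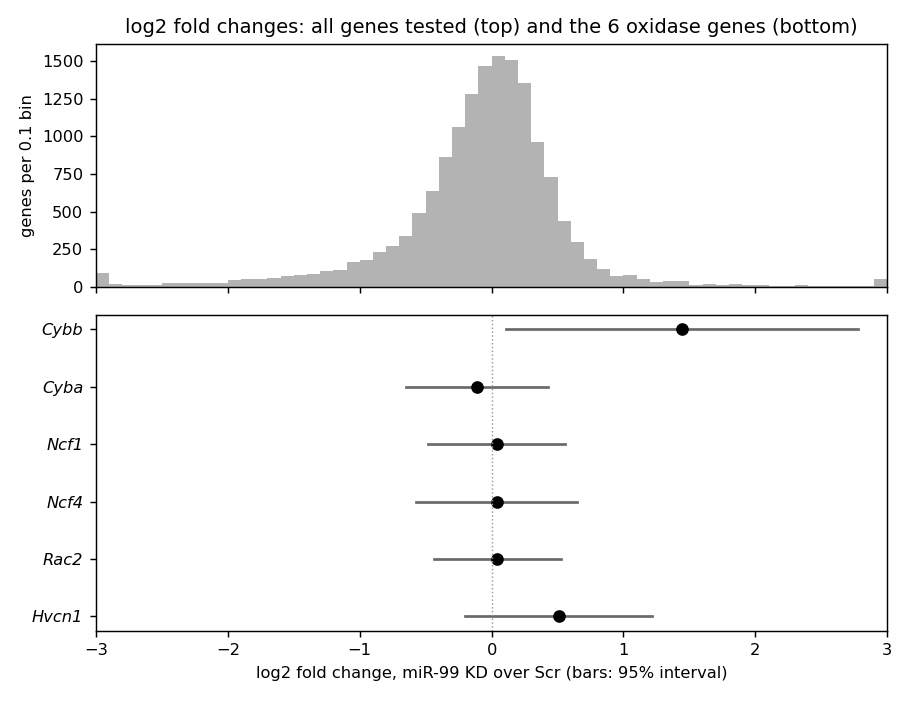
The upper panel gives the number of genes per bin of log2 fold change (miR-99 KD over Scr) for all 15591 genes tested, with values beyond the axis placed in the end bins. The lower panel gives the 6 oxidase genes with 95% intervals. Cybb at 1.44 lies in the right tail, Hvcn1 at 0.51, and the other 4 between −0.11 and 0.04.

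On a scale per exon length (TPM, counts divided by the length of the merged exons of GENCODE M21 and scaled to a fixed sum) the genes could be set against each other. Cyba had the highest level, with 1670 ± 115 TPM in miR-99 KD and 2035 ± 384 TPM in Scr (SD, n = 2 each). Rac2 followed with 1209 ± 120 TPM in miR-99 KD and 1328 ± 89.4 TPM in Scr. Ncf1 had 666 ± 177 TPM in miR-99 KD and 724 ± 64.0 TPM in Scr, and Ncf4 had 449 ± 64.2 TPM in miR-99 KD and 496 ± 89.9 TPM in Scr. The catalytic subunit stood below these in the means of both groups, with Cybb at 434 ± 205 TPM in miR-99 KD, against 184 ± 75.4 TPM in Scr. Hvcn1 was lowest with 56.1 ± 6.71 TPM in miR-99 KD and 44.5 ± 14.1 TPM in Scr. The order Cyba, Rac2, Ncf1, Ncf4, Cybb, Hvcn1 held in 3 of 4 libraries. In miR-99 KD 2, Cybb (579 TPM) stood ahead of Ncf1 (541 TPM) and Ncf4 (494 TPM). In miR-99 KD the levels of Cybb (289 and 579 TPM) therefore overlapped those of Ncf1 (792 and 541 TPM) and Ncf4 (403 and 494 TPM), while the other neighbours in the order did not overlap. In Scr no neighbours in the order overlapped. The same order was found with the length of the longest coding transcript in place of merged exons.

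Within a library the 2 membrane subunits were far from equal in transcript level. The TPM of Cybb divided by that of Cyba was 0.182 and 0.330 in miR-99 KD and 0.103 and 0.0741 in Scr. This ratio needs no scaling between libraries, and its lower miR-99 KD value exceeded the higher Scr value 1.77 times. Against the other subunits the gap was narrower, at 1.69 times for Cybb over Ncf4 (0.716 and 1.17 in miR-99 KD, 0.424 and 0.302 in Scr) and 1.51 times for Cybb over Rac2 (0.257 and 0.447 in miR-99 KD, 0.171 and 0.103 in Scr). It was narrowest for Cybb over Ncf1, at 1.18 times (0.365 and 1.07 in miR-99 KD, 0.309 and 0.193 in Scr). With 2 libraries against 2, an exact permutation test cannot give a two-sided p below 0.333, and the ratios were not tested in another way. Hvcn1 over Cyba was 0.0383 and 0.0293 in miR-99 KD and 0.0236 and 0.0196 in Scr, also without overlap, with a ratio of means of 1.57. Ncf4 over Cyba was 0.254 and 0.282 in miR-99 KD and 0.242 and 0.245 in Scr, without overlap but by only 1.04 times. Rac2 over Cyba was 0.708 and 0.739 in miR-99 KD and 0.603 and 0.717 in Scr, with overlap. Ncf1 over Cyba also overlapped, at 0.498 and 0.309 in miR-99 KD and 0.333 and 0.385 in Scr. Hvcn1 over Cybb was lower in miR-99 KD, at 0.211 and 0.0888, against 0.229 and 0.264 in Scr. The share of all gene pairs without overlap was not counted. Ncf1 over Ncf4 was 1.96 and 1.09 in miR-99 KD and 1.37 and 1.57 in Scr, with the extremes both in miR-99 KD. Cybb made up 15.6% and 27.2% of all counts of the 6 genes in miR-99 KD and 11.3% and 7.59% in Scr.

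**Figure D3:**
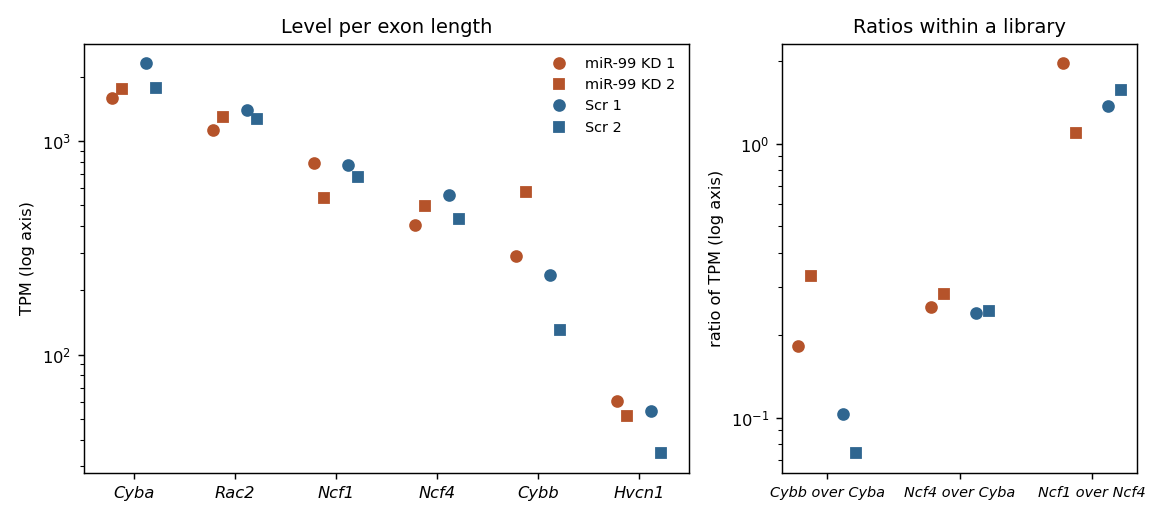
The left panel gives the level of each oxidase gene per exon length (TPM, log axis) in each library, ordered from Cyba to Hvcn1. The right panel gives ratios of TPM within a library (log axis). Cybb over Cyba is 0.182 and 0.330 in miR-99 KD and 0.103 and 0.0741 in Scr, while Ncf4 over Cyba stays between 0.242 and 0.282.

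The profile of Cybb over the 4 libraries lay apart from those of the other subunits. Each gene's log2 CPM was centred on its mean over the 4 libraries, and profiles were compared by Euclidean distance, as a description over 4 libraries that share these scalings. Cyba, Ncf4 and Rac2 were close to each other (0.173 to 0.228), and Ncf1 was 0.526 to 0.611 from them. Cybb was 1.23 from Hvcn1 and 1.48 to 1.81 from the other members. Among 9027 other genes with a mean of at least 10 CPM, the nearest to Cybb were Lrg1, which encodes a leucine-rich glycoprotein found in neutrophil granules, at 0.196, and Chil3, which encodes a chitinase-like protein of myeloid cells, at 0.283. Lrg1 had 13.6 and 27.3 CPM in miR-99 KD and 9.39 and 5.13 CPM in Scr, and Chil3 had 3597 and 8226 CPM in miR-99 KD and 2986 and 1233 CPM in Scr. Both had the same order of libraries as Cybb. They were picked for nearness to its profile, so this order is not a separate result. The nearest to Hvcn1 were Pfkfb4, an enzyme that sets the level of a glycolysis activator, at 0.0527, and the cytokine gene Il15 at 0.202. The nearest to the flatter members were Poll and Tcp11l2 (Cyba), Fam120b and Trmt1l (Ncf1), Gm10282 and Hscb (Ncf4), and 1110004F10Rik and Mrpl11 (Rac2), at distances of 0.0152 to 0.0472.

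Summed markers of granulocytes and of monocytes had the same order of libraries as Cybb, but not every marker did. The summed level of 8 markers of secondary and tertiary granules and late granulocytes was 2353 and 7551 CPM in miR-99 KD and 849 and 288 CPM in Scr, and 5 of the 8 lay above both Scr libraries in both miR-99 KD libraries (6 after TMM scaling). The summed level of 5 primary granule markers was 8144 and 14711 CPM in miR-99 KD and 5486 and 4134 CPM in Scr, with 3 of 5 higher (4 after TMM scaling). For 8 monocyte and macrophage markers the sums were 2488 and 3883 CPM in miR-99 KD and 2281 and 2097 CPM in Scr. Of these 8 markers, 3 were higher (4 after TMM scaling) and 1 lower. After TMM scaling, 18.9% of all genes tested lay above and 25.3% below in this way. The share of all genes in the order of Cybb was not counted. Single markers in that order numbered 5 of 8, 3 of 5 and 3 of 8. Mmp8, Mmp9, Retnlg, Ctsg and Ms4a3 were the granulocyte markers out of it. None of these markers was at 0 in any library. The share of gene counts from mitochondrial genes also had this order, at 0.853% and 1.16% in miR-99 KD and 0.650% and 0.637% in Scr. The part of these markers and of this share in the Cybb difference was not tested. In RNA of a sorted population, more cells of a type and more RNA per cell cannot be told apart. Of other blood cells, the sums for 6 eosinophil, basophil and mast cell markers were 205 and 114 CPM in miR-99 KD and 96.5 and 88.9 CPM in Scr, and for 7 erythroid markers 41.4 and 104 CPM in miR-99 KD and 69.2 and 89.2 CPM in Scr. The B cell sums were 63.8 and 89.1 CPM in miR-99 KD and 78.0 and 61.3 CPM in Scr, and those of T and NK cells 151 and 160 CPM in miR-99 KD and 166 and 114 CPM in Scr. Cd79b (59.9 to 88.2 CPM) and Nkg7 (112 to 164 CPM) made up most of these sums. Of the rest, Pax5, Cd3e, Cd8a and Trbc2 had 0 to 4 counts per library, while others reached more counts. Klrb1c had 11 and 10 counts in miR-99 KD and 50 and 60 in Scr, Cd79a 30 and 22 in miR-99 KD and 45 and 49 in Scr, Ms4a1 1 and 11 in miR-99 KD and 45 and 3 in Scr, and Ebf1 1 and 8 in miR-99 KD and 21 and 4 in Scr. None of these 4 sums had the order of libraries of Cybb.

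**Figure D4:**
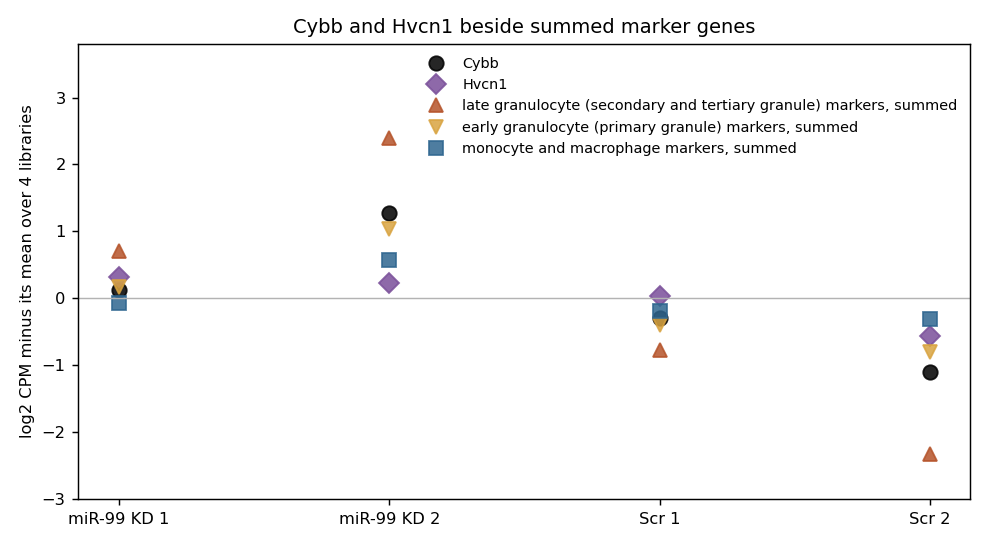
Log2 CPM minus its mean over the 4 libraries (vertical axis) for Cybb, Hvcn1 and the summed markers of 3 groups of myeloid cells. Cybb and both granulocyte sums share the order miR-99 KD 2, miR-99 KD 1, Scr 1, Scr 2 from high to low, with late granulocyte markers running from 2.39 to −2.33 and Cybb from 1.27 to −1.10.

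The promoters of Cybb, Cyba and Ncf1 are shown because Cybb differed in pattern from Cyba and Ncf1. They are the 250 bases before the RefSeq start (GRCm38.p6), 5′ to 3′ on the gene's strand, with matches to the motifs named below in capitals. Ncf4, Rac2 and Hvcn1 have no entry in the table used.
Cybb, chrX:9469325-9469574, minus strand: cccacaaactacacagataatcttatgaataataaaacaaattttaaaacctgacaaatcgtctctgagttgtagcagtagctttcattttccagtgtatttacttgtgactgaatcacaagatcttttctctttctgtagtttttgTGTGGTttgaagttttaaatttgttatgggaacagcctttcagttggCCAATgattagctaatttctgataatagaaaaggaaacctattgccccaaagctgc
Cyba, chr8:122432941-122433190, minus strand: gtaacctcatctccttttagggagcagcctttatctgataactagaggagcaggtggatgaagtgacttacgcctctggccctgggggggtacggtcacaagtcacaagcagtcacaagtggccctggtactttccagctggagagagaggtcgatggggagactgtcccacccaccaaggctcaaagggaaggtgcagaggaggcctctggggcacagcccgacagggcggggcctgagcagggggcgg
Ncf1, chr5:134229626-134229875, minus strand: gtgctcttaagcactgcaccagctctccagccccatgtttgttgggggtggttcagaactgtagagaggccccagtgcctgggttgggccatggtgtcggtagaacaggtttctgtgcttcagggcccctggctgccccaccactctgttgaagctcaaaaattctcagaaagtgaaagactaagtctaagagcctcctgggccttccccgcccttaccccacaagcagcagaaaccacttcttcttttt
The Cybb stretch was 34.0% G and C, against 60.0% for Cyba and 54.4% for Ncf1. Cybb held the RUNX core TGTGGT at bases −103 to −98 and a CCAAT box at −56 to −52, counted from the start. It also held GAGGAA, a string that the myeloid ETS factor PU.1 can bind, on the opposite strand at bases 10 to 15 after the start. The windows of Cyba and Ncf1 held none of these 3 strings on either strand. Shorter ETS cores such as GGAA were not searched. The printed stretches of Cybb and Cyba hold GGAA, and that of Ncf1 holds TTCC, which is GGAA on the opposite strand. Of all 32851 promoter windows in the table, which add 50 bases after the start to make 300, 16.8% held TGTGGT, 37.4% CCAAT and 28.3% GAGGAA on either strand. A match is a string of letters and does not show that a factor binds there, and no match says only that these letters are not in the window.

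Transcription factors described for oxidase promoters went both ways in the same libraries. Of 16, all tested, 0 passed edgeR over all genes. At an unadjusted edgeR p under 0.05 there was 1 with higher and 2 with lower values, beside 2.66% and 5.23% of all genes tested. Irf8, an interferon regulatory factor of myeloid cells known to act on CYBB in people, had 284 and 446 CPM in miR-99 KD and 217 and 154 CPM in Scr, the same order of libraries as Cybb. Its log2 fold change was 1.04 ± 0.28 (edgeR adjusted p 0.580). Spi1, the gene of PU.1, had 404 and 450 CPM in miR-99 KD and 363 and 453 CPM in Scr (0.11 ± 0.21), and the ETS factor gene Elf1 had 424 and 365 CPM in miR-99 KD and 517 and 505 CPM in Scr (−0.32 ± 0.16). Hoxa9, a target of MLL fusion proteins, had 169 and 165 CPM in miR-99 KD and 301 and 351 CPM in Scr (−0.92 ± 0.19, edgeR adjusted p 0.466). Meis1, the cofactor of Hoxa9, was the other factor gene with lower values (231 and 196 CPM in miR-99 KD, against 359 and 319 CPM in Scr, −0.61 ± 0.16, edgeR adjusted p 0.580), named after its values were seen. The median of this list was 0.06.

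Other members of the oxidase family and their partners gave no call. Of 15 genes 7 had enough counts to be tested, and their median was 0.15. The fold change was positive in 4 and negative in 3, beside 49.0% and 51.0% of all genes tested. Cybc1, which encodes a chaperone needed for gp91phox and p22phox, had 142 and 131 CPM in miR-99 KD and 169 and 142 CPM in Scr (log2 fold change −0.13 ± 0.16, edgeR adjusted p 0.819). Rap1a, a small GTPase found with the membrane subunits, had 103 and 127 CPM in miR-99 KD and 87.9 and 88.4 CPM in Scr (0.43 ± 0.18, edgeR adjusted p 0.655). Nox1, the catalytic subunit of the colon enzyme, was at 0.211 and 0.259 CPM in miR-99 KD and 0.442 and 0.334 CPM in Scr. The genes Nox3, Nox4, Duox1 and Duox2 of the other catalytic subunits did not reach the count filter.

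Signalling genes upstream of the oxidase had small differences. Of 27, all tested, 15 had a positive and 12 a negative fold change, with a median of 0.01 and 0 at an unadjusted edgeR p under 0.05. Over all genes tested, 49.0% were positive and 51.0% negative, and at that p 2.66% were higher and 5.23% lower. Dock2, an exchange factor that loads Rac with GTP, had 622 and 413 CPM in miR-99 KD and 738 and 718 CPM in Scr (−0.44 ± 0.25, edgeR adjusted p 0.701). Pla2g4a, the phospholipase that releases arachidonic acid, had 82.8 and 78.8 CPM in miR-99 KD and 108 and 100 CPM in Scr (−0.31 ± 0.15, edgeR adjusted p 0.674). Receptors and adaptors that trigger the burst had a median of 0.14 over 19 tested of 20, and the single gene at an unadjusted p under 0.05 was Fpr2, a receptor for formylated peptides, at 2.81 and 5.64 CPM in miR-99 KD and 2.05 and 1.39 CPM in Scr (1.36 ± 0.44, edgeR adjusted p 0.606). Csf2rb, the shared receptor chain for GM-CSF and IL-3, had 248 and 223 CPM in miR-99 KD and 318 and 307 CPM in Scr (−0.36 ± 0.15). The integrin chain gene Itgb2 (529 and 481 CPM in miR-99 KD, against 549 and 468 CPM in Scr) and the adaptor gene Tyrobp (487 and 709 CPM in miR-99 KD, against 643 and 481 CPM in Scr) overlapped between groups.

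Genes that remove superoxide and peroxide, and those that supply NADPH, also gave no call. For both lists the background over all genes tested was 49.0% positive and 51.0% negative. At an unadjusted edgeR p under 0.05 it was 2.66% higher and 5.23% lower. Of 26 removal genes, all tested, 18 had a positive and 8 a negative fold change (median 0.15), with 3 genes at an unadjusted edgeR p under 0.05. The higher one, named after its values were seen, was Nfe2l2, which encodes the antioxidant response factor NRF2 (96.1 and 122 CPM in miR-99 KD, against 86.1 and 74.5 CPM in Scr, 0.50 ± 0.18, edgeR adjusted p 0.627). The lower ones were the stress enzymes Hmox1, which degrades heme (15.5 and 10.1 CPM in miR-99 KD, against 29.5 and 24.5 CPM in Scr, −1.01 ± 0.29, edgeR adjusted p 0.583), and Nqo1, a quinone reductase (2.37 and 2.02 CPM in miR-99 KD, against 4.47 and 4.18 CPM in Scr, −0.92 ± 0.26, edgeR adjusted p 0.580). The glutathione genes overlapped between groups, with the peroxidase Gpx1 at 3265 and 4310 CPM in miR-99 KD and 4051 and 3116 CPM in Scr, and the reductase Gsr at 2268 and 1815 CPM in miR-99 KD and 1320 and 2180 CPM in Scr. Of 15 NADPH supply genes, all tested, 10 had a positive and 5 a negative fold change (median 0.16), and the single gene at an unadjusted p under 0.05 was Me1, the cytosolic malic enzyme, at low levels (0.258 and 0.400 CPM in miR-99 KD, against 0.962 and 1.07 CPM in Scr, −1.58 ± 0.43, edgeR adjusted p 0.580). Its mitochondrial relative Me2 had 180 and 208 CPM in miR-99 KD and 145 and 153 CPM in Scr (0.43 ± 0.17). The pentose phosphate enzymes Tkt (807 and 640 CPM in miR-99 KD, against 893 and 754 CPM in Scr) and Taldo1 (681 and 830 CPM in miR-99 KD, against 789 and 600 CPM in Scr) overlapped between groups.

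**Figure D5:**
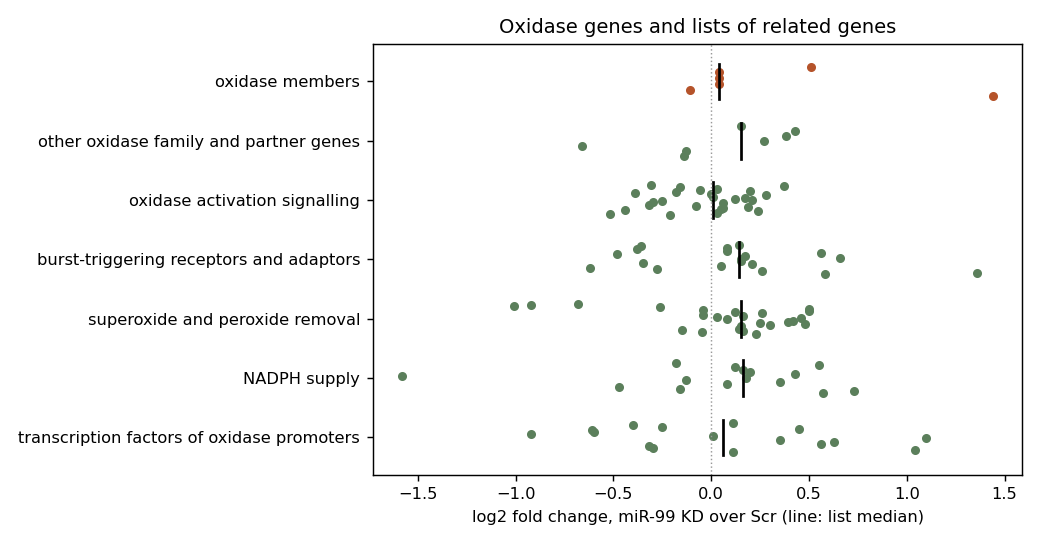
Log2 fold change (miR-99 KD over Scr) of each tested gene, 1 point per gene, in the oxidase set and 6 lists of related genes, with the list median as a line. List medians lie between 0.01 and 0.16, and Cybb at 1.44 is the highest point.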

How the data were processed

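Raw read counts per Ensembl gene were deposited for 4 libraries, 1 per mouse. Per the submitters' processing notes, STAR, Picard, HTSeq and DESeq2 were used on mm9, and no source used here gives the annotation or strand setting. Per the labels' protocols, RNA was amplified with SMARTer. The 5 categories that name no gene (43.7% to 49.7% of entries) were left out. CPM divides deposited counts by library totals, without TMM. The main test was edgeR 4.0.16 (R 4.3.3; TMM, filterByExpr with a minimum count of 10, quasi-likelihood, Benjamini-Hochberg over 15591 genes, threshold 0.05). It was run on simulated counts that varied less between libraries than these data. That run therefore does not show how the test performs at the spread seen here. SE is the fold change divided by the square root of F. DESeq2 1.42.0, limma 3.58.1 voom, other factors, filters, exclusions and a replicate block were alternatives. P-values measure the spread between mice of 1 group. Members and lists were chosen with earlier results of these data known. Named list genes are the 2 with the smallest p and the 2 with the highest CPM per list; 3 genes so picked are not reported here. Profiles use log2 CPM with TMM and a prior count of 2. Lengths are from GENCODE M21 (GRCm38), matched by identifier; no coordinates were converted.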

Additional observations from a re-analysis of the deposited data

How the results depend on the processing

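The count of genes called by edgeR, 0 with TMM factors, was also 0 with median-of-ratios factors, with a stricter count filter and in limma-voom, and was 23 with upper-quartile factors, 208 in DESeq2 and 9 with no low-count filter. Leaving out 1 library each gave 0 to 294 genes, the 294 without Scr 1. The count of oxidase genes called was 0 throughout, apart from 1, Cybb, without Scr 1 (0 to 1 over the exclusions). The median log2 fold change of the oxidase genes was 0.01 to 0.10 under the other settings and 0.04 to 0.29 over the exclusions, the highest without miR-99 KD 1. Over the exclusions Cybb ran from 0.79 to 1.99, Hvcn1 from 0.28 to 0.92, Cyba from −0.23 to 0.15, Ncf1 from −0.11 to 0.26, Ncf4 from −0.17 to 0.31 and Rac2 from −0.11 to 0.27. The cause of these shifts was not tested. Same-numbered libraries deviated in opposite directions (correlation −0.428 across genes). This correlation cannot decide whether the numbers pair the mice, and the labels do not say. With the replicate block 0 genes were called, the oxidase median was 0.03 and no oxidase gene changed its side of the threshold. With the crossed pairing, chosen after seeing the data, 28 genes were called, 0 of them oxidase genes. The log2 fold change of Cybb was 1.39 in that fit, with an edgeR adjusted p of 0.0878. Each group has 2 libraries, and counting error is small beside their spread.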

Other observations

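Rac1, the widely expressed relative of Rac2 that can also serve the oxidase, was uneven within a group. It was chosen after its values were seen. It had 6615 and 3175 counts (155 and 74.7 CPM) in miR-99 KD and 775 and 6549 counts (20.2 and 156 CPM) in Scr, so that Scr 2 held 7.76 times the level of Scr 1. Its log2 fold change of 0.38 ± 1.04 had an edgeR adjusted p of 0.920. Rac2 differed between the Scr libraries 1.18 times. The unevenness was not particular to Rac1. Among the listed signalling genes, Prex1 had 131 and 62.8 CPM in miR-99 KD and 31.2 and 134 CPM in Scr. Mapk14 had 302 and 154 CPM in miR-99 KD and 69.5 and 286 CPM in Scr. Prex1 and Mapk14 were also chosen after their values were seen, and the cause of this pattern was not tested.

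G6pdx, which encodes the enzyme that opens the NADPH-producing branch of glucose metabolism, had 340 and 479 CPM in miR-99 KD and 335 and 241 CPM in Scr (log2 fold change 0.57 ± 0.23, edgeR adjusted p 0.655), and Itgam, the CD11b chain that pairs with the product of Itgb2, had 332 and 191 CPM in miR-99 KD and 490 and 353 CPM in Scr (−0.62 ± 0.33, edgeR adjusted p 0.690). Both were chosen after their values were seen. For Itgam both miR-99 KD libraries lay below both Scr libraries, as did 25.3% of all genes tested after TMM scaling. Of 8 late granulocyte markers, 5 lay above in CPM and 6 after TMM scaling, beside 18.9% of all genes tested after TMM scaling.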
